A study of Mus musculus with 16 samples.

Results

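The 8 genes described here encode fatty acid binding and uptake proteins: the receptor Cd36, the transport proteins Slc27a2, Slc27a4 and Slc27a5, and the cytosolic binding proteins Fabp1, Fabp2, Fabp4 and Fabp5. They were chosen by name, with earlier results of these data known, and all 8 were found among the 55416 mouse gene IDs of the deposited table. RNA was sequenced from primary hepatocytes, the parenchymal cells that make up most of the liver, taken from mice and kept in culture. The cross was made to remove Smpd3, which encodes a neutral sphingomyelinase that splits membrane sphingomyelin into ceramide, from hepatocytes by a Cre recombinase under the albumin promoter. Cells were given palmitic acid, a saturated fatty acid used at 0.4 mM to model steatohepatitis in culture, or its vehicle for 24 h, and the design asks what the deletion does in each state.

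The 4 groups held 4 samples each: HKO cells (Alb-cre+) with palmitic acid, HKO cells with vehicle, FLOX cells (Alb-cre-) with palmitic acid and FLOX cells with vehicle. The presence of Cre and the loss of Smpd3 cannot be told apart, since FLOX cells carried no Cre. The labels give no age, sex or strain of the mice, nor the mouse or culture behind each replicate. The p-values therefore rest on the variation among these samples, and that variation may be technical.

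Long-chain fatty acids enter hepatocytes across the plasma membrane, helped by the scavenger receptor CD36 and by the fatty acid transport proteins of the SLC27 family, which also join fatty acids or bile acids to coenzyme A. Inside the cell, small binding proteins of the FABP family hold the fatty acid and carry it to membranes, to enzymes and to the nuclear receptors of the PPAR family. FABP1 is the major binding protein of the liver, FABP2 is best known from the intestine, and FABP4 and FABP5 are best known from adipose tissue, macrophages and skin.

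The promoters of 3 genes with large differences are printed. Fabp1 had the lowest limma adjusted p of the 8 genes between genotypes under each treatment, and Fabp2 and Cd36 changed most with palmitic acid. Fabp4 also differed clearly between genotypes, but its promoter was not available. Each sequence is from RefSeq (build GRCm38.p6), reads 5′ to 3′ on the gene's own strand, and runs from 250 bases before the annotated start to 50 bases after it. Capitals mark 3 short motifs that were searched on both strands. One is the direct repeat AGGTCANAGGTCA with at most 1 mismatch, the form that PPAR and RXR dimers are known to bind, another is its half-site AGGTCA, and the last is TATAAA. The Fabp1 window lies at chr6:71199629-71199928 on the plus strand, that of Fabp2 at chr3:122894822-122895121 on the plus strand and that of Cd36 at chr5:17835847-17836146 on the minus strand.
Fabp1: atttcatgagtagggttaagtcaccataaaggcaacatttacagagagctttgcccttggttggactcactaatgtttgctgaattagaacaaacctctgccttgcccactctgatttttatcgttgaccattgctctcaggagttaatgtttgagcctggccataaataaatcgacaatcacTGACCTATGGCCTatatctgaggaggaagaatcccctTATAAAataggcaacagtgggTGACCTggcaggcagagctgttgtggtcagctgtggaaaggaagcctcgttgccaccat
Fabp2: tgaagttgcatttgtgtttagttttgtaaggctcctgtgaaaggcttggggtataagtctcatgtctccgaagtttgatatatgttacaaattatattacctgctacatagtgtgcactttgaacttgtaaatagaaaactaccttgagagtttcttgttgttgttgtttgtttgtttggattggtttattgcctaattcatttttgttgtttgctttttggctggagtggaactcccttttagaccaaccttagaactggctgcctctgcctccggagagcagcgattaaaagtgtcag
Cd36: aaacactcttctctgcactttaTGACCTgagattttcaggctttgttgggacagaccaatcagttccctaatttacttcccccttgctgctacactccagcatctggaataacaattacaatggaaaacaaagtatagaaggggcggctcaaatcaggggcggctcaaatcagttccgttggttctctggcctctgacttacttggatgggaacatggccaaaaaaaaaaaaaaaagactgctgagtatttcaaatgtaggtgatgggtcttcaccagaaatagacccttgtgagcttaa
In the Fabp1 window, the letters TGACCTATGGCCT matched the direct repeat on the opposite strand with 1 mismatch, with their first base at position -67 from the start. That stretch also holds a half-site, a further half-site began at position -9, and TATAAA began at position -30. The Cd36 window held a half-site at position -228, and the Fabp2 window held none of the 3 motifs. Of the 32851 promoters of this length, 0.554% held the direct repeat, 16.3% the half-site and 13.6% TATAAA. The windows of Slc27a2 and Slc27a4 were searched as well, and 1 half-site at position -220 of Slc27a2 was found. Promoters of 5 of the 8 genes were in the table, and those of Fabp4, Fabp5 and Slc27a5 were not searched. A match describes these letters alone and shows no binding.

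Values are TPM, relative abundances corrected for transcript length, so levels can be compared between genes. The number of genes at 1 TPM or more ran from 11231 to 11498 per sample. The depth is unknown, because TPM does not record it, and the spread of the 4 samples of a group shows how precise a value is. Smpd3 averaged 7.82 ± 1.1 TPM in HKO cells with palmitic acid and 46.0 ± 2.4 TPM in FLOX cells with palmitic acid, and 5.29 ± 0.71 TPM in HKO cells with vehicle and 32.0 ± 4.1 TPM in FLOX cells with vehicle (SD, n = 4 each, as for every mean below). All 10 hepatocyte markers were at 1 TPM or more in every sample. They summed to 48444 to 49851 TPM in HKO cells with palmitic acid and 62603 to 63817 TPM in HKO cells with vehicle, and to 45900 to 47441 TPM in FLOX cells with palmitic acid and 58510 to 59226 TPM in FLOX cells with vehicle. Most of each sum was Alb, Trf and Apoa1. These sums were lower with palmitic acid in both genotypes, as were Fabp1, Cd36, Slc27a2 and Slc27a5 in both and Fabp5 in HKO cells. Fabp2 and Slc27a4 were higher with palmitic acid in both genotypes, and Fabp4 in FLOX cells. The sums were higher in HKO than in FLOX cells under each treatment, but not every marker was. Alb and Trf were higher in HKO cells under each treatment, and Apoa1 and Hnf4a were lower. Apoa1 averaged 8934 and 12974 TPM in HKO cells with palmitic acid and vehicle, and 11673 and 15719 TPM in FLOX cells. The part of the hepatocyte markers in the results was not tested. Of the 9 macrophage markers, Cd68 ran from 48.32 to 106.43 TPM, Csf1r reached 1.37 TPM, Lyz2 0.96 TPM and Clec4f 0.47 TPM, and Timd4 was listed at 0. Stellate cell markers summed to at most 2.03 TPM and lymphocyte and neutrophil markers to at most 0.46 TPM. FLOX replicate 1 with palmitic acid and FLOX replicate 1 with vehicle stood at opposite ends of the third principal component, which held 7.53% of the variance.

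Fabp1 was the most abundant and Cd36 the least abundant of the 8 genes in all 4 groups. The 4 Fabp transcripts summed to 784 ± 39 TPM in HKO cells with palmitic acid, 948 ± 52 TPM in HKO cells with vehicle, 1162 ± 50 TPM in FLOX cells with palmitic acid and 1270.3 ± 41 TPM in FLOX cells with vehicle. These sums did not overlap between any neighbouring groups in that order. The 3 Slc27 transcripts summed to 130.4 ± 4.0 TPM, 147 ± 0.89 TPM, 124 ± 1.9 TPM and 141 ± 8.0 TPM in the same order of groups. Binding protein transcripts were thus several times more abundant than transport protein transcripts in each group. Fabp4, Fabp5 and Slc27a5 came after Fabp1 in level. Slc27a2, Slc27a4 and Fabp2 lay close together: Slc27a2 and Fabp2 overlapped in HKO cells with palmitic acid, Fabp2 and Slc27a4 in FLOX cells with palmitic acid, and Slc27a2 and Slc27a4 in FLOX cells with vehicle. Fabp5 and Fabp4 overlapped in HKO cells with vehicle.

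**Figure D1:**
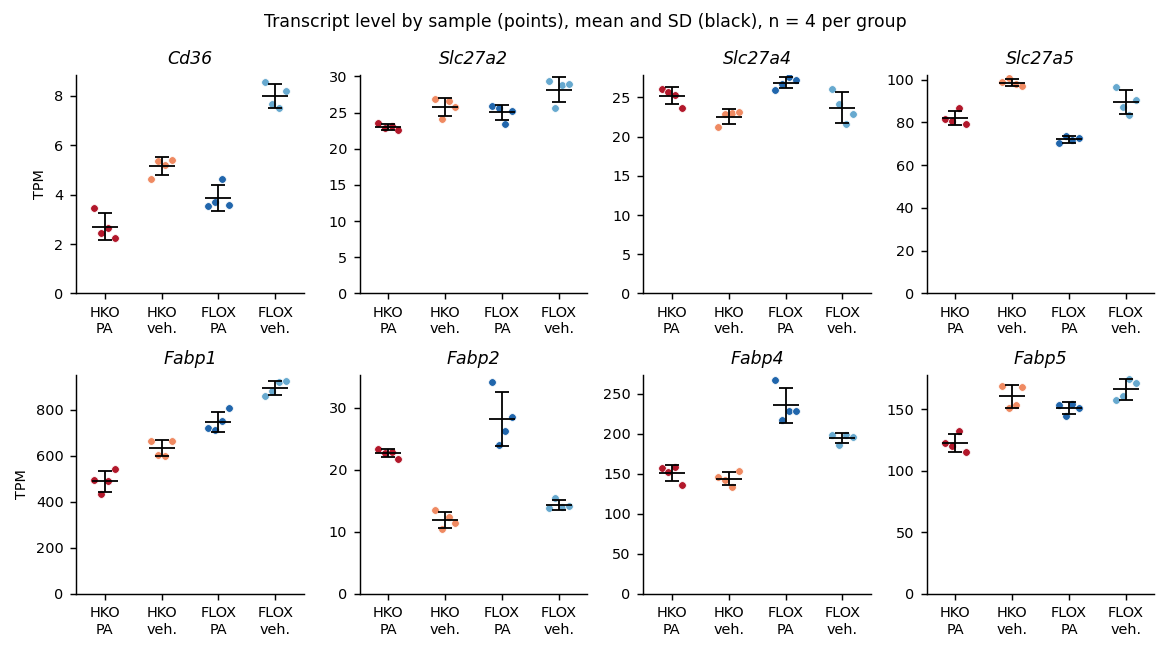
Transcript level in TPM (vertical axes, from 0, one scale per gene) of the 8 genes in the 4 groups (HKO and FLOX cells with palmitic acid, PA, or vehicle, veh.), with a point per sample and black bars for the mean and SD of 4 samples. Fabp1 is lowest in HKO cells with palmitic acid and higher in each next group, with no overlap, Fabp2 is high in both palmitic acid groups, and Cd36 is highest in FLOX cells with vehicle and lowest in HKO cells with palmitic acid.

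Cd36, the membrane receptor that takes up long-chain fatty acids and oxidized lipoproteins, was lower with palmitic acid in both genotypes and lower in HKO than in FLOX cells. Its TPM were 3.48, 2.44, 2.63 and 2.24 in HKO cells with palmitic acid, 4.63, 5.38, 5.19 and 5.42 in HKO cells with vehicle, 3.53, 3.70, 4.64 and 3.59 in FLOX cells with palmitic acid, and 8.55, 7.67, 7.50 and 8.22 in FLOX cells with vehicle. All HKO samples with palmitic acid lay below all other samples, and all FLOX samples with vehicle lay above them; HKO cells with vehicle and FLOX cells with palmitic acid overlapped in the middle. With palmitic acid, the mean was 52.3% of that with vehicle in HKO cells (log2 fold change -0.74 ± 0.10, SE; limma with Benjamini-Hochberg adjustment over 11858 genes, as throughout, adjusted p = 2.65e-05) and 48.4% in FLOX cells (-0.89 ± 0.10, adjusted p = 6.34e-06). In HKO cells the mean stood at 69.8% of that in FLOX cells with palmitic acid (log2 fold change -0.40 ± 0.10, limma adjusted p = 0.019) and at 64.6% with vehicle (-0.55 ± 0.10, limma adjusted p = 0.00219). Since 1 was added to each TPM, the log2 fold changes understate the ratios of means at levels as low as these. The call between genotypes with palmitic acid rested on single libraries: the limma adjusted p was 0.0587 without HKO replicate 2 with palmitic acid, 0.0586 without HKO replicate 4 with palmitic acid and 0.0637 without FLOX replicate 3 with palmitic acid, whose Cd36 stood above the other samples of its group. It was also lost, at an adjusted p of 0.109 in limma, when only the 8 samples compared entered the fit.

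Of the transport proteins, Slc27a5, the bile acid and very long-chain acyl-CoA synthetase of the liver, was lower with palmitic acid and was the one gene of the 8 that was higher in HKO than in FLOX cells. Its TPM were 81.77, 80.56, 86.82 and 79.41 in HKO cells with palmitic acid and 98.75, 100.82, 97.78 and 96.92 in HKO cells with vehicle. In FLOX cells they were 70.22, 73.60, 71.52 and 72.90 with palmitic acid and 96.40, 87.03, 83.29 and 90.67 with vehicle. Within each genotype every palmitic acid sample lay below every vehicle sample, and under each treatment every HKO sample lay above every FLOX sample. The mean with palmitic acid was 83.3% of that with vehicle in HKO cells and 80.7% in FLOX cells (log2 fold changes -0.26 ± 0.043 and -0.30 ± 0.043, limma adjusted p = 0.000148 and 5.01e-05). In HKO cells the mean was 1.14 times that in FLOX cells with palmitic acid (log2 fold change 0.19 ± 0.043, limma adjusted p = 0.0106) and 1.10 times with vehicle (0.14 ± 0.043, limma adjusted p = 0.0409). The call with vehicle was weak: it was lost in 15 of 25 alternatives, among them those without replicates 2, 3 or 4 of FLOX cells with vehicle, without each replicate of HKO cells with vehicle, without replicates 3 or 4 of FLOX cells with palmitic acid and without replicates 1 or 2 of HKO cells with palmitic acid, where the limma adjusted p ran from 0.0503 to 0.128.

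Slc27a2, a very long-chain acyl-CoA synthetase of peroxisomes and the endoplasmic reticulum, and Slc27a4, a long-chain transport protein that is known as the main one of the small intestine, changed little. Slc27a2 had 23.58, 22.85, 23.11 and 22.59 TPM in HKO cells with palmitic acid, 26.86, 24.10, 26.64 and 25.71 TPM in HKO cells with vehicle, 25.87, 25.61, 23.45 and 25.19 TPM in FLOX cells with palmitic acid and 29.32, 25.57, 28.77 and 28.98 TPM in FLOX cells with vehicle. Only the 2 HKO groups were separate among these comparisons. The palmitic acid mean was 89.2% of the vehicle mean in HKO cells and 88.9% in FLOX cells (log2 fold changes -0.16 ± 0.052 and -0.16 ± 0.052, limma adjusted p = 0.0227 and 0.0235). The call was lost in HKO cells without HKO replicates 1 or 3 with vehicle or HKO replicate 4 with palmitic acid (limma adjusted p between 0.051 and 0.0677), and in FLOX cells without FLOX replicates 1, 3 or 4 with vehicle or FLOX replicate 3 with palmitic acid (0.057 to 0.0793). After median-ratio scaling the fall was larger and passed in both genotypes, at -0.28 in HKO cells and -0.26 in FLOX cells (limma adjusted p = 0.00262 and 0.00482). Between genotypes Slc27a2 did not pass the threshold, with differences of -0.11 (95% interval -0.22 to -0.0041) with palmitic acid and -0.12 (-0.23 to -0.0092) with vehicle on the log2 scale. The noncoding gene Gm26697 overlaps Slc27a2 on the opposite strand and matches it at 100% of 421 bases. It was not among the deposited gene IDs, so its level is unknown.

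Slc27a4 had 26.13, 25.74, 25.30 and 23.70 TPM in HKO cells with palmitic acid, 21.21, 22.89, 23.04 and 23.15 TPM in HKO cells with vehicle, 26.01, 26.67, 27.61 and 27.29 TPM in FLOX cells with palmitic acid and 26.14, 24.19, 21.57 and 22.85 TPM in FLOX cells with vehicle. The HKO groups were separate and the FLOX groups overlapped by 1 vehicle sample. The palmitic acid means were 1.12 and 1.14 times the vehicle means in HKO and FLOX cells (log2 fold changes 0.15 ± 0.056 and 0.18 ± 0.056, limma adjusted p = 0.0367 and 0.0207). These differences were close to the shift of all genes: the median log2 fold change of the 11858 genes was 0.11 in HKO cells and 0.096 in FLOX cells, and less that median Slc27a4 stood at 0.042 and 0.083. After median-ratio scaling of the samples, which brings the median of all genes to 0.005 and 0.0053, the differences were 0.035 and 0.080 and neither passed (limma adjusted p = 0.589 and 0.204). After quantile normalization they were 0.042 and 0.093 (limma adjusted p = 0.485 and 0.12). The calls were also lost without HKO replicates 1, 2 or 3 of either treatment in HKO cells (limma adjusted p between 0.0515 and 0.113), and without FLOX replicates 3 or 4 of either treatment in FLOX cells (0.051 to 0.0749). Between genotypes Slc27a4 did not pass, with log2 differences of -0.090 (95% interval -0.21 to 0.029) with palmitic acid and -0.064 (-0.18 to 0.054) with vehicle.

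Fabp1, the liver-type binding protein that carries fatty acids, acyl-CoA and bile acids, separated all 4 groups. Its TPM were 491.91, 431.96, 488.91 and 540.63 in HKO cells with palmitic acid and 662.78, 601.80, 600.06 and 662.04 in HKO cells with vehicle. In FLOX cells they were 721.79, 711.08, 751.04 and 807.62 with palmitic acid and 857.86, 881.45, 918.45 and 923.09 with vehicle. No sample of any group reached into the range of another, and both HKO groups lay below both FLOX groups. In HKO cells the mean stood at 65.3% of that in FLOX cells with palmitic acid and at 70.6% with vehicle (log2 fold changes -0.62 ± 0.060 and -0.50 ± 0.060, limma adjusted p = 4.31e-06 and 3.86e-05). In level Fabp1, the most abundant of the 8 genes, had their largest genotype differences, -259.5 TPM with palmitic acid and -264 TPM with vehicle. As a share of the FLOX mean, Fabp4 was lower with palmitic acid (64.1%) and Cd36 with vehicle (64.6%). With palmitic acid the mean was 77.3% of that with vehicle in HKO cells (log2 fold change -0.37 ± 0.060, limma adjusted p = 0.00013) and 83.5% in FLOX cells (-0.26 ± 0.060, limma adjusted p = 0.00346). The mean of HKO cells with palmitic acid was 54.6% of that of FLOX cells with vehicle. All 4 calls held in each of the 25 alternatives, with log2 fold changes between -0.67 and -0.24.

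Fabp2, the intestinal-type binding protein, was the gene of the 8 that rose most with palmitic acid. Its TPM were 23.30, 22.59, 22.88 and 21.77 in HKO cells with palmitic acid, against 13.41, 10.36, 12.42 and 11.47 in HKO cells with vehicle. In FLOX cells they were 34.08, 23.92, 26.23 and 28.42 with palmitic acid, against 13.76, 15.45, 13.92 and 14.11 with vehicle. Each palmitic acid group lay wholly above both vehicle groups, and the FLOX palmitic acid samples were the most spread, with replicate 1 the highest of all 16. The palmitic acid mean was 1.90 times the vehicle mean in HKO cells (log2 fold change 0.88 ± 0.091, limma adjusted p = 1.61e-06) and 1.97 times in FLOX cells (0.92 ± 0.091, limma adjusted p = 1.41e-06). Per 100 TPM of Fabp1 there were 4.67 ± 0.49 TPM of Fabp2 in HKO cells with palmitic acid and 1.89 ± 0.19 with vehicle, and 3.77 ± 0.64 in FLOX cells with palmitic acid and 1.60 ± 0.11 with vehicle. HKO samples lay below FLOX samples under each treatment without overlap, but the difference did not pass: it was -0.29 (95% interval -0.49 to -0.098, limma adjusted p = 0.056) with palmitic acid and -0.25 (-0.44 to -0.056, limma adjusted p = 0.0934) with vehicle on the log2 scale. It passed with palmitic acid without FLOX replicate 2 with palmitic acid or HKO replicates 1 or 2 with vehicle (limma adjusted p between 0.0192 and 0.0496), and with vehicle without FLOX replicate 1 with palmitic acid (0.0325).

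Fabp2 is known as a gene of enterocytes, so a list of enterocyte markers was read beside it. Of the 6 listed, Sis and Cdx2 were listed at 0 in all 16 samples. The list's summed level was dominated by Apoa4, which liver cells also express: the sum ran from 4393 to 4929 TPM in HKO cells with palmitic acid and 1454 to 1663 TPM in HKO cells with vehicle, and from 3562 to 4524 TPM in FLOX cells with palmitic acid and 1065 to 1142 TPM in FLOX cells with vehicle. Vil1, the other listed gene above 1 TPM, averaged 2.70 and 11.5 TPM in HKO cells with palmitic acid and vehicle, and 3.14 and 16.8 TPM in FLOX cells with palmitic acid and vehicle. The antisense gene 4933405D12Rik overlaps Fabp2 and was listed at 0.12 TPM at most.

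Fabp4, the adipocyte-type binding protein, was lower in HKO than in FLOX cells under both treatments. Its TPM were 156.64, 152.35, 158.49 and 135.45 in HKO cells with palmitic acid and 145.47, 142.57, 133.58 and 153.54 in HKO cells with vehicle, and these groups overlapped. In FLOX cells they were 266.72, 217.20, 227.80 and 228.67 with palmitic acid and 197.75, 186.03, 197.91 and 196.15 with vehicle, and these groups were separate. Every HKO sample lay below every FLOX sample. With palmitic acid the mean of HKO cells was 64.1% of that of FLOX cells, and with vehicle 73.9% (log2 fold changes -0.64 ± 0.063 and -0.43 ± 0.063, limma adjusted p = 5.12e-06 and 0.000245), and both calls held in each of 25 alternatives. In FLOX cells the palmitic acid mean was 1.21 times the vehicle mean (log2 fold change 0.27 ± 0.063, limma adjusted p = 0.00383). Less the median of all genes this was 0.17, and after median-ratio scaling it did not pass (0.17, limma adjusted p = 0.151). In HKO cells the log2 difference was 0.067 (95% interval -0.067 to 0.20, limma adjusted p = 0.421), and it was -0.056 after median-ratio scaling.

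Because Fabp4 is a known gene of adipocytes, macrophages and capillary endothelium, their markers were read beside it. Of the adipocyte markers Adipoq, Plin1, Cfd and Retn reached at most 0.24 TPM and Lep was listed at 0; Cidea was the only one of the 6 above 1 TPM. The 9 macrophage markers summed to 81.5 to 108 TPM in HKO cells with palmitic acid and 60.8 to 70.3 TPM in HKO cells with vehicle, and to 56.1 to 68.6 TPM in FLOX cells with palmitic acid and 48.9 to 55.6 TPM in FLOX cells with vehicle. These sums were nearly all Cd68 and were higher in HKO than in FLOX cells under each treatment. The 9 endothelial markers summed to 2.89 to 5.62 TPM over all samples. The 6 cholangiocyte markers summed to 338 to 386 TPM in HKO cells with palmitic acid and 299 to 324 TPM in HKO cells with vehicle, against 197 to 242 TPM in FLOX cells with palmitic acid and 180.4 to 191 TPM in FLOX cells with vehicle. These sums were mostly Spp1, at 327 and 274 TPM in HKO cells with palmitic acid and vehicle and 171 and 149 TPM in FLOX cells. Sox9 averaged 35.8 and 22.9 TPM in HKO cells and 34.9 and 25.9 TPM in FLOX cells in the same order. Under each treatment Krt19 was higher and Krt7 lower in HKO than in FLOX cells. The part of all these markers in the genotype differences of the 8 genes was not tested. In such bulk samples, fewer cells of a type and less RNA per cell cannot be told apart.

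Fabp5, the epidermal-type binding protein, was lower with palmitic acid in HKO cells, where it fell below all other groups. Its TPM were 122.54, 119.94, 132.22 and 115.23 in HKO cells with palmitic acid and 169.25, 150.92, 153.95 and 168.55 in HKO cells with vehicle. In FLOX cells they were 154.05, 144.76, 154.87 and 151.46 with palmitic acid and 157.65, 160.78, 175.22 and 171.46 with vehicle. The HKO samples with palmitic acid stood apart below the other 12, while HKO cells with vehicle overlapped both FLOX groups. The FLOX groups were also separate, with every palmitic acid sample below every vehicle sample. The palmitic acid mean was 76.2% of the vehicle mean in HKO cells (log2 fold change -0.39 ± 0.051, limma adjusted p = 1.73e-05). In FLOX cells it was 91.0% (log2 difference -0.13, 95% interval -0.24 to -0.027, limma adjusted p = 0.0516), just outside the threshold. It passed at adjusted p values of 0.0246 after median-ratio scaling and 0.015 after quantile normalization in limma, and without FLOX replicate 1 with vehicle, HKO replicates 3 or 4 with palmitic acid or HKO replicate 2 with vehicle (0.0315 to 0.0473). Under palmitic acid the mean of HKO cells was 81.0% of that of FLOX cells (log2 fold change -0.30 ± 0.051, limma adjusted p = 0.000924), whereas with vehicle the difference was -0.050 (95% interval -0.16 to 0.058, limma adjusted p = 0.617). Fabp5 has 5 processed pseudogenes that match it at 93.6% to 98.3% of bases, with which the counting could share reads; 3 were listed at 0 in all samples and the highest reached 0.35 TPM.

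Fabp5 and Fabp4 lie in a cluster of Fabp genes on mouse chromosome 3, in the order Fabp5, Pmp2, Fabp9, Fabp4 and Fabp12. Fabp9 and Fabp12 were listed at 0 in all 16 samples and Pmp2 reached 0.09 TPM at most. Both transcribed neighbours were abundant, at 115.23 to 175.22 TPM for Fabp5 and 133.58 to 266.72 TPM for Fabp4, and they did not move alike with palmitic acid. Their mean log2 fold changes in HKO cells were -0.39 for Fabp5 and 0.067 for Fabp4, and in FLOX cells -0.13 and 0.27.

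Set side by side, palmitic acid changed 7 of the 8 genes in HKO cells, 2 higher and 5 lower, where 42.5% of all tested genes passed, 29.4% higher and 13.1% lower. In FLOX cells 3 were higher and 4 lower, where 34.4% of all genes passed, 23.0% higher and 11.5% lower. Between genotypes, 1 was higher and 4 lower in HKO cells with palmitic acid, where 9.74% of all genes passed, 4.24% higher and 5.50% lower, and 1 was higher and 3 lower with vehicle, where 11.7% passed, 4.11% higher and 7.56% lower. The median log2 fold change of the 8 genes was -0.21 in HKO cells and -0.15 in FLOX cells with palmitic acid, against 0.11 and 0.096 over all genes, and -0.30 with palmitic acid and -0.18 with vehicle between genotypes, against -0.0077 and -0.023 over all genes. Scaling moved the counts of the palmitic acid comparisons: after median-ratio scaling 1 gene was higher and 5 lower in each genotype, and Fabp2 alone was higher. Of the 11858 genes, 2086 then passed as higher and 2363 as lower in HKO cells, and 1624 and 1997 in FLOX cells. Scaling also moved the split over all genes, with 69.3% of calls higher in HKO cells and 66.7% in FLOX cells as deposited, against 46.9% and 44.8% after median-ratio scaling. Between genotypes 43.5% of all calls with palmitic acid and 35.2% with vehicle were higher in HKO cells as deposited, and 53.3% and 53.9% after that scaling. The counts of the 8 genes between genotypes were 1 higher and 4 lower with palmitic acid and 1 higher and 3 lower with vehicle in both. Over all genes, 538 were higher and 471 lower with palmitic acid after that scaling, and 630 and 539 with vehicle. The samples of each group enter more than 1 of these comparisons, which are therefore not independent. Because the 8 genes were chosen with earlier results of these data known, the shares over all genes serve as context alone.

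The response to palmitic acid was not shown to differ between genotypes for any of the 8 genes, where 0.194% of all genes passed the test of that difference in limma. The lowest unadjusted p-values of the 8 genes in limma were those of Fabp5 (0.00291) and Fabp4 (0.038). The response of HKO cells less that of FLOX cells was -0.25 ± 0.072 for Fabp5 (limma adjusted p = 0.289) and -0.20 ± 0.089 for Fabp4 (limma adjusted p = 0.616). For Fabp1 the difference was -0.11 (95% interval -0.29 to 0.068), for Fabp2 -0.042 (-0.32 to 0.23) and for Cd36 0.15 (-0.16 to 0.45). For the 3 Slc27 genes it lay between -0.026 and 0.044.

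**Figure D2:**
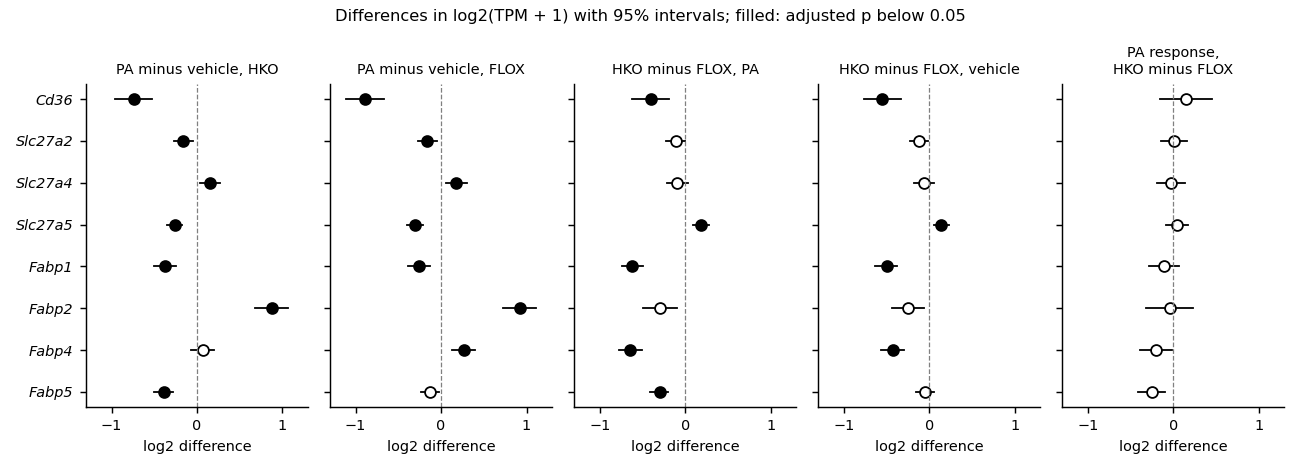
Log2 differences in TPM + 1 (horizontal axes) of the 8 genes with 95% intervals in the 5 comparisons, filled where the limma adjusted p was below 0.05. Fabp2 lies far right and Cd36 far left with palmitic acid in both genotypes, Fabp1 and Fabp4 lie left between genotypes under both treatments, and no gene is filled in the panel of HKO response minus FLOX response.

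Each gene's course over the 16 samples was compared with that of all other tested genes by the root mean square difference of the centred log2 values. Among the closest to Fabp1 were Adh1, alcohol dehydrogenase (0.0868), and Khk, ketohexokinase, an enzyme of fructose use (0.103). Closest to Cd36 were Ccnd1, cyclin D1 (0.13), Vnn1, a pantetheinase known as a PPARα target (0.142), and Anln, an actin-binding protein of cell division (0.162). Closest to Fabp5 were Dbi, the acyl-CoA binding protein (0.0712), Ndufb10, a subunit of respiratory complex I (0.0714), and Tmem219 (0.076). The genes closest to Slc27a5 were Got1 (0.0467), Idh1 (0.054) and Cyp4v3 (0.058), enzymes of the cytosol and of fatty acid hydroxylation. Fabp2 ran closest to Cgref1 (0.124), Castor1, an arginine sensor (0.138), and Prr13 (0.145), and Fabp4 to Serpine2, a protease inhibitor (0.108), 4931406C07Rik (0.109) and Tinagl1 (0.114). Slc27a2 and Slc27a4, whose own course was nearly flat, ran within 0.0595 and 0.0512 of their nearest 3 genes. The SD of their own log2 values over the 16 samples was 0.114 and 0.111, against 0.333 for Fabp1 and 0.488 for Cd36. A smaller distance is therefore not a closer match when the 8 genes are compared with each other. None of the 8 genes was among the nearest 3 of another.

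**Figure D3:**
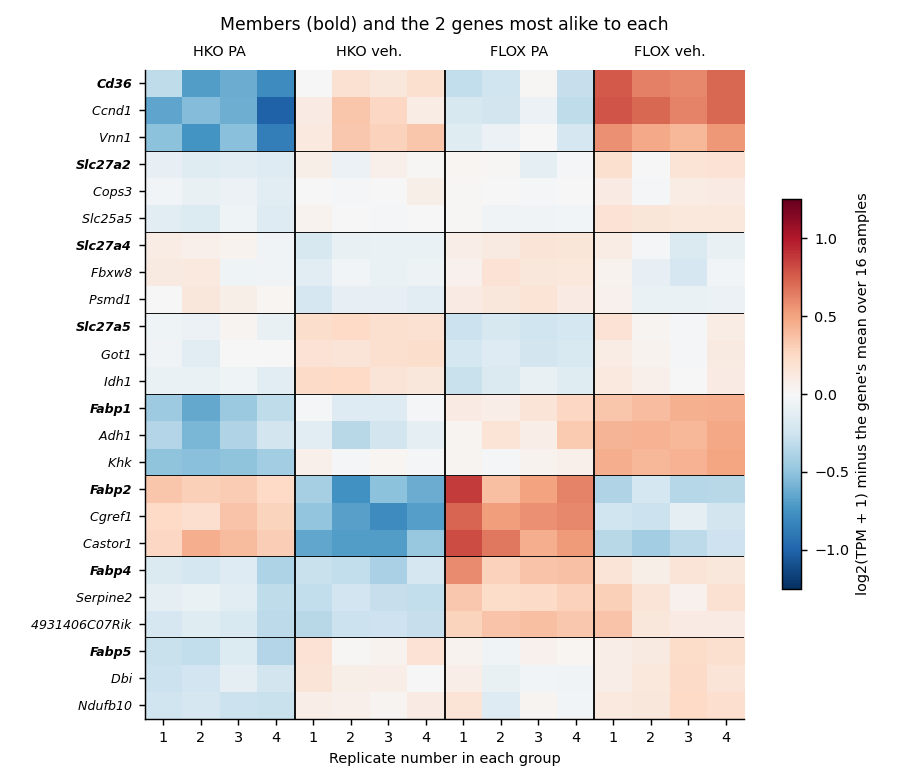
Log2(TPM + 1) less the gene's mean over 16 samples (colour, red above and blue below) for the 8 genes (bold) and the 2 genes nearest to each, by group and replicate number. The block of Fabp1 is mostly blue in HKO and red in FLOX cells, that of Fabp2 is red in both palmitic acid groups, and that of Cd36 is reddest in FLOX cells with vehicle.

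Other members of the families were scarce: of 9 further Fabp and Slc27 genes, only Slc27a1, an insulin-sensitive transport protein of muscle and fat, was tested, and the others reached 0.98 TPM at most. Slc27a1 averaged 4.06 ± 0.48 TPM in HKO cells with palmitic acid and 2.54 ± 0.57 TPM in HKO cells with vehicle, and 3.46 ± 0.96 TPM in FLOX cells with palmitic acid and 1.86 ± 0.31 TPM in FLOX cells with vehicle. It rose with palmitic acid in both (log2 fold changes 0.53 ± 0.15 and 0.62 ± 0.15, limma adjusted p = 0.0114 and 0.00514), the opposite direction to Slc27a2 and Slc27a5.

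Of 16 tested genes of acyl-CoA formation, binding and cleavage, palmitic acid raised 4 and lowered 6 in HKO cells and raised 5 and lowered 4 in FLOX cells; the list's median log2 fold changes were -0.17 and -0.028. This is 62.5% and 56.2% of the list, against 42.5% and 34.4% of all tested genes. After median-ratio scaling 9 were lower in HKO cells and 6 in FLOX cells. Baat, which joins bile acids to amino acids after the step that Slc27a5 catalyses, averaged 11.7 ± 0.64 TPM in HKO cells with palmitic acid and 25.4 ± 1.6 TPM in HKO cells with vehicle, and 13.7 ± 0.83 TPM in FLOX cells with palmitic acid and 30.6 ± 0.74 TPM in FLOX cells with vehicle. It thus fell further with palmitic acid (log2 fold changes -1.06 ± 0.057 and -1.10 ± 0.057, limma adjusted p = 1.11e-09 and 9.4e-10) than did Slc27a5, and unlike Slc27a5 it was lower in HKO cells (log2 fold changes -0.22 with palmitic acid and -0.26 with vehicle, limma adjusted p = 0.0248 and 0.00774). Acbd4, an acyl-CoA binding protein, fell by 0.76 on the log2 scale in HKO cells and by 0.53 in FLOX cells (limma adjusted p = 9.26e-06 and 0.000412). Acot2, a mitochondrial thioesterase with the near-identical neighbour Acot1, between which reads could be split, rose by 1.22 and 1.05 (limma adjusted p = 1.29e-09 and 9.66e-09). Between genotypes 4 of the 16 were lower and none higher in HKO cells with palmitic acid, and 2 were lower and 1 higher with vehicle. This is 25.0% and 18.8% of the list, against 9.74% and 11.7% of all genes.

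Of 10 tested genes of lipoprotein and fatty acid entry at the cell surface, palmitic acid left 2 higher and none lower in HKO cells, and 2 higher and 1 lower in FLOX cells. The higher ones in both were Scarb1, the HDL receptor, and Lsr, a lipoprotein receptor, with log2 fold changes of 0.17 and 0.23 in HKO cells and 0.19 and 0.14 in FLOX cells (limma adjusted p = 0.0333, 0.000112, 0.0214 and 0.0072). Of all tested genes, 42.5% passed in either direction in HKO cells and 34.4% in FLOX cells. Scaling changed these calls. After median-ratio scaling none of the 10 passed as higher, and 6 in HKO cells and 3 in FLOX cells passed as lower. After quantile normalization Lsr alone was higher, by 0.21 in HKO cells and 0.095 in FLOX cells (limma adjusted p = 9.22e-05 and 0.0323), and 4 and 2 were lower in HKO and FLOX cells. Vldlr, the VLDL receptor, fell in FLOX cells to 3.17 ± 0.99 TPM with palmitic acid, against 4.83 ± 1.2 TPM with vehicle (log2 fold change -0.49 ± 0.17, limma adjusted p = 0.0407). In HKO cells it averaged 5.05 ± 0.98 TPM with palmitic acid and 7.0 ± 0.68 TPM with vehicle (-0.41 ± 0.17, limma adjusted p = 0.0691). Between genotypes 1 of the 10 passed with palmitic acid and none with vehicle, where 9.74% and 11.7% of all genes passed. This was Got2, the mitochondrial aspartate aminotransferase also described at the plasma membrane, at -0.12 ± 0.037 (limma adjusted p = 0.0484), and its call was lost after median-ratio scaling (limma adjusted p = 0.0685). The list's largest difference between genotypes was that of Vldlr, 0.55 ± 0.17 with palmitic acid (limma adjusted p = 0.0596). It passed after median-ratio scaling and after quantile normalization (0.55 and 0.53, limma adjusted p = 0.049 and 0.0455).

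Of 12 tested nuclear receptors and regulators of these genes, palmitic acid raised 3 and lowered 6 in HKO cells and raised 2 and lowered 4 in FLOX cells. These are 9 and 6 of the 12, where 42.5% and 34.4% of all tested genes passed. After median-ratio scaling it lowered 8 in each genotype. Between genotypes 1 of the 12 was higher and 2 were lower in HKO cells with palmitic acid, and 1 was lower with vehicle. This is 25.0% and 8.33% of the list, against 9.74% and 11.7% of all genes. With palmitic acid, 2 were higher and 2 lower after median-ratio scaling. Pparg, the receptor known to drive Cd36 and Fabp4 in fat cells and macrophages, averaged 2.64 ± 0.37 TPM in HKO cells with palmitic acid, 3.53 ± 0.54 TPM in HKO cells with vehicle, 4.59 ± 0.20 TPM in FLOX cells with palmitic acid and 7.41 ± 1.6 TPM in FLOX cells with vehicle. It was lower with palmitic acid (log2 fold changes -0.31 ± 0.12 in HKO cells and -0.57 ± 0.12 in FLOX cells, limma adjusted p = 0.0468 and 0.0018) and lower in HKO cells (-0.62 ± 0.12 with palmitic acid and -0.88 ± 0.12 with vehicle, limma adjusted p = 0.00317 and 0.000148). In FLOX cells Fabp4 was higher with palmitic acid while Pparg was lower, and the part of Pparg in the levels of Cd36 and Fabp4 was not tested. Nr1i2, the pregnane X receptor, was lower in HKO than in FLOX cells with palmitic acid (-0.25 ± 0.065, limma adjusted p = 0.0221). That call was lost after median-ratio scaling (limma adjusted p = 0.0503). Nr1i2 fell with palmitic acid (-0.41 ± 0.065 in HKO cells and -0.29 ± 0.065 in FLOX cells, limma adjusted p = 0.000119 and 0.00291). Nr1i3, the constitutive androstane receptor, was close to the limit of 1 TPM and fell too (-0.47 ± 0.13 and -0.46 ± 0.13, limma adjusted p = 0.00814 and 0.0127). Foxa1 rose in HKO cells to 5.40 ± 0.61 TPM with palmitic acid, against 3.39 ± 0.55 TPM with vehicle (log2 fold change 0.55 ± 0.11, limma adjusted p = 0.00083). In FLOX cells it averaged 4.07 ± 0.42 TPM with palmitic acid and 3.44 ± 0.53 TPM with vehicle (0.20 ± 0.11, limma adjusted p = 0.178), and the responses of the genotypes did not differ past the threshold (limma adjusted p = 0.611).

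Among 16 tested target genes of the PPAR family, 8 rose with palmitic acid in each genotype, as did Fabp2, and 2 fell, as did Fabp1 and Cd36 (62.5% called in each, against 42.5% and 34.4% of all genes), with median log2 fold changes of 0.41 in HKO cells and 0.47 in FLOX cells. After median-ratio scaling 8 rose in each genotype, and 4 fell in HKO cells and 3 in FLOX cells. The medians were then 0.29 and 0.38. Pdk4, a kinase that holds back glucose oxidation, averaged 26.9 ± 3.6 TPM in HKO cells with palmitic acid and 0.96 ± 0.16 TPM in HKO cells with vehicle, and 32.0 ± 11 TPM in FLOX cells with palmitic acid and 1.79 ± 0.23 TPM in FLOX cells with vehicle. The lipid droplet proteins Plin2 and Cidec rose by 2.55 and 1.81 on the log2 scale in HKO cells and by 2.46 and 1.86 in FLOX cells (limma adjusted p = 6.73e-14, 3.59e-11, 2.27e-13 and 4.43e-11). Between genotypes none of the 16 was higher in HKO cells, while 6 were lower with palmitic acid and 8 with vehicle, where Cidec stood at -0.30 ± 0.070 (limma adjusted p = 0.0106). After quantile normalization, 9 were lower and 1 higher with vehicle. Over all genes 9.74% and 11.7% passed in either direction in these comparisons. Fabp1, Fabp4 and Cd36 were likewise lower in HKO cells under both treatments.

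**Figure D4:**
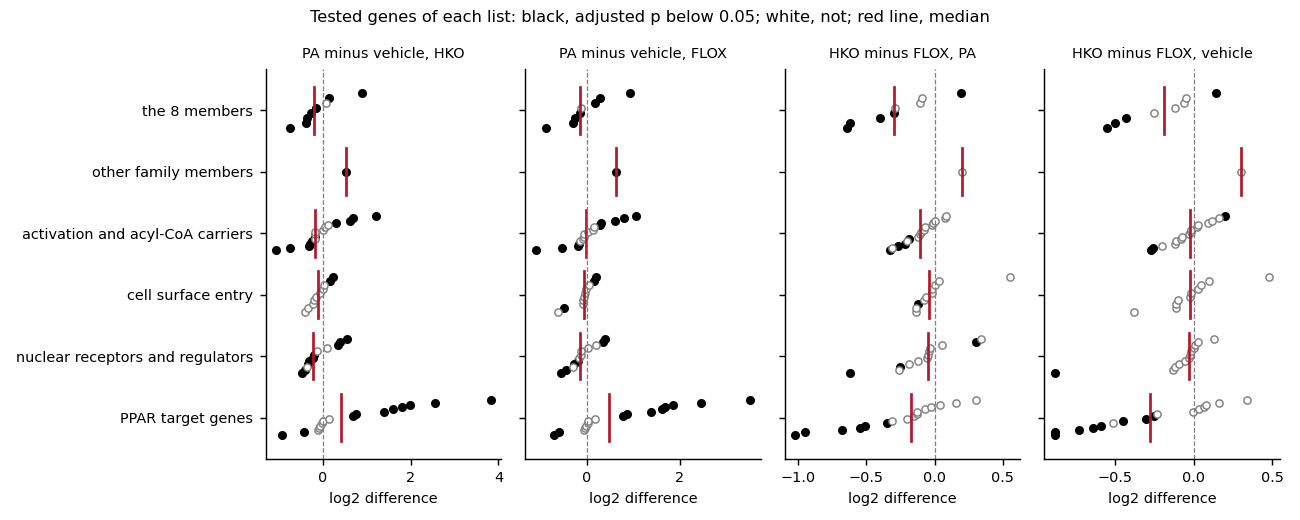
Log2 differences in TPM + 1 (horizontal axes) of the tested genes of each list in the 4 pairwise comparisons, black where the limma adjusted p was below 0.05, with the median as a red line. The 8 genes lie mostly left of 0 in all panels, and the PPAR target genes lie mostly right of 0 with palmitic acid and left of 0 between HKO and FLOX cells.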

How the data were processed

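Stranded libraries were made from total RNA of mouse primary hepatocytes, per the labels' protocols, in 16 samples of 4 groups. The deposited values are TPM for 55416 Ensembl gene IDs, made by the authors with RSEM 1.3.3, per the submitters' processing notes. The genome build in those notes, GRCh38.p13, is human and does not match mouse IDs, and no coordinates were read from the table. Aligner and annotation release were not given in the sources used here. Symbols were matched for 52083 IDs (94.0%).

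From the TPM, the 11858 genes with 1 TPM or more in at least 4 samples were tested as log2(TPM + 1) by limma 3.58.1 (R 4.3.3). A single fit of all 16 samples gave each group its mean and let the variance follow the level. Tests were two-sided with Benjamini-Hochberg adjustment over all genes tested and a threshold of 0.05. The fit was also run on simulated data with independent noise for each gene. Changes were placed in FLOX cells with palmitic acid and only their comparison with vehicle was read, so the other comparisons were not tested in this way. TPM allows no counting intervals. The members, gene lists and marker lists were chosen with earlier results of these data known. All 8 members are named, with up to 4 genes of each list that passed with the largest changes and the genes nearest in pattern, except genes that are not reported here. Promoters are from RefSeq, and near copies were sought with blastn 2.17.0 in GENCODE M21 transcripts (at least 150 aligned bases at 80% identity). The alternatives changed the pseudocount (0.1), the filter (none, or 5 TPM), the scaling (median-ratio, quantile), the variance trend or the samples fitted, added a replicate block, or left out each sample in turn. Leaving out both FLOX libraries numbered 1 was chosen after seeing the data.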

Additional observations from a re-analysis of the deposited data

Results flagged for a closer look

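In 4 of the 32 sets of 4 replicates of the 8 genes, 1 sample stood far from the other 3 by Dixon's test at the 95% level, which chance alone reaches in about 1 set in 20. Cd36 was 4.64 TPM in FLOX replicate 3 with palmitic acid, against 3.53 to 3.70 TPM in the other samples of its group, and without this sample the Cd36 difference between genotypes with palmitic acid did not pass (limma adjusted p = 0.0637). Slc27a4 was 21.21 TPM in HKO replicate 1 with vehicle, against 22.89 to 23.15 TPM in the others. FLOX replicate 2 with vehicle was low for 2 genes: Fabp4 was 186.03 TPM there against 196.15 to 197.91 TPM in the others, and Slc27a2 was 25.57 TPM against 28.77 to 29.32 TPM.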

How the results depend on the processing

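Of 992 values of the 40 results for single members under 24 or 25 alternatives, 914 kept their direction and side of the threshold, 48 lost the call, 15 gained one and 15 changed sign. Calls in each alternative numbered 5 to 7 and 5 to 8 of the 8 genes with palmitic acid in HKO and FLOX cells, 4 to 6 and 3 to 5 between genotypes with palmitic acid and vehicle, and 0 for the difference in response. Over all genes, calls numbered 4231 to 5598 and 3191 to 5268 with palmitic acid in HKO and FLOX cells. They numbered 669 to 1245 and 981 to 1633 between genotypes, and 3 to 26 for the difference in response. The main fit tested 11858 genes, and the changed filters tested other numbers. Every change of sign concerned a value that had not passed: Fabp4 with palmitic acid in HKO cells was -0.056 after median-ratio scaling, and the others were differences in response near 0. Slc27a2 there was -0.014 after median-ratio scaling and -0.031 after quantile normalization and ran from -0.027 to 0.049 when a sample was left out. Fabp2 ran from -0.11 to 0.050 and Slc27a4 from -0.073 to 0.016 when a sample was left out. Without both FLOX libraries numbered 1, Fabp2 was 0.068 and Slc27a5 -0.0052. Over all genes, 669 in place of 1155 passed between genotypes with palmitic acid when only those groups entered the fit. The 23 genes that passed for the difference in response became 9 after median-ratio scaling, 5 without the trend and 8 to 24 when a sample was left out. The cause of these changes was not tested.

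Titles give equal numbers across groups without saying whether they mark the same mouse. Same-numbered samples with palmitic acid and vehicle did not deviate together (r from -0.15 to 0.036 in FLOX and -0.026 to 0.086 in HKO cells), so no pairing was used. Between genotypes, where an equal number cannot mark the same mouse, r ran from -0.11 to 0.11. With the replicate block 3 genes passed for the difference in response, and the calls of Slc27a2 (limma adjusted p = 0.0611 in HKO and 0.0666 in FLOX cells) and Slc27a4 (0.111 and 0.0827) with palmitic acid and of Slc27a5 between genotypes with vehicle (0.0794) were lost. Unknown depth leaves the counting error of Cd36, the scarcest of the 8 genes, unmeasured.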
